A study of Mus musculus with 16 samples.

Results

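Chemokines are small secreted proteins that attract leukocytes through receptors on the cell surface. The genes described here are 8 chemokines and 2 chemokine receptors of macrophages and other leukocytes, namely Ccl3, Ccl4, Ccl5, Ccl6, Ccl9, Ccl17, Cxcl1, Cxcl16, Ccr2 and Cxcr4. They were chosen by name, as 10 of the 23467 genes listed in the HiSeq tables, and their levels were measured by Drop-seq in mammary tumors of 2 models of triple-negative breast cancer (TNBC) in the mouse. Ccl2, Ccl7, Ccl8, Cxcl2 and Cxcl12 were left out of the group by the same choice. All 10 genes were detected, and 9 of them stood at a higher level in leukocytes than in the pooled other cells. Cxcl1 was the exception, with its highest level in fibroblasts.

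WB1P tumors (WapCre;Brca1F/F;Trp53F/F) arise after Cre recombinase, driven by the milk protein promoter Wap, deletes Brca1 and Trp53 in cells of the mammary epithelium. The tumors called WB1P-Myc (WapCre;Brca1F/F;Trp53F/F;Myc) carry in addition a Cre-activated Myc and luciferase construct in the Col1a1 locus. Both models lack Brca1 and Trp53 in the epithelium, both were made in female FVB/n mice, and the tumors were taken at end stage without treatment. The labels used here state no age of the mice. Live single cells (singlets negative for the dye dapi) were sorted and captured in droplets, and 4 droplet fractions of the suspension of each model were sequenced. The fractions are technical. A figure legend of the paper gives more than 1 mouse per model, but no fraction is tied to a mouse, so the cells of a model may come from different mice. Each model was therefore counted as 1 sample, no test between models was made, and the droplet session and the model cannot be told apart.

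CCL3 and CCL4 are inflammatory chemokines, CCL3 acts through CCR1, and CCL5 shares this receptor and is known from T and NK cells. CCL6 and CCL9 are rodent ligands of CCR1 that are abundant in macrophages. CCL17 is a ligand of CCR4 made by dendritic cells, CXCL1 attracts neutrophils through CXCR2, and CXCL16 is a membrane-bound ligand of CXCR6. CCR2 draws monocytes out of the bone marrow towards CCL2 and CCL7, and CXCR4 is the receptor of CXCL12. In tumors, CCR2 is known as the receptor through which monocytes that become macrophages are recruited.

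Of the members, 5 lay together on chromosome 11 (mm10), within 138906 bases. In the GENCODE annotation Ccl5 spans chr11:83525778-83530518 on the minus strand, Ccl9 chr11:83572919-83578636 (minus), Ccl6 chr11:83587882-83593087 (minus), Ccl3 chr11:83647844-83649355 (minus) and Ccl4 chr11:83662584-83664683 (plus). Ccl9 and Ccl6 were 9245 bases apart and Ccl3 and Ccl4 13228 bases apart. Ccl6 lies inside E230016K23Rik, a gene of the opposite strand, and Cxcl16 (chr11:70453983-70459984, minus) overlaps Zmynd15 on the opposite strand, so reads of these pairs can be told apart only where strand was used in counting. The other members are Ccl17 (chr8:94810453-94812036, plus), Cxcl1 (chr5:90891241-90893115, plus), Ccr2 (chr9:124101950-124113557, plus) and Cxcr4 (chr1:128588199-128592293, minus).

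Promoters are shown for Cxcl1, the member with its highest level in fibroblast-like cells, and for Ccl6 and Ccl9, neighbors that were nearly confined to leukocytes. Each line gives the 250 bases before the RefSeq transcription start in GRCm38.p6, read 5′ to 3′ on the strand of the gene, at chr5:90890995-90891244 (plus), chr11:83593088-83593337 (minus) and chr11:83578637-83578886 (minus). Capitals mark matches, on either strand, to a kappaB-like motif of 10 letters, a PU.1-like motif (AGGAAGT) or a TATA motif (TATAAA).
Cxcl1: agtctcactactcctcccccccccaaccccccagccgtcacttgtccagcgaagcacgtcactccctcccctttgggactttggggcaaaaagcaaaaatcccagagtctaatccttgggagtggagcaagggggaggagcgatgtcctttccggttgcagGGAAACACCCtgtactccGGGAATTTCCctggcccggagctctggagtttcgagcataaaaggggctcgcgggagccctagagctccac
Ccl6: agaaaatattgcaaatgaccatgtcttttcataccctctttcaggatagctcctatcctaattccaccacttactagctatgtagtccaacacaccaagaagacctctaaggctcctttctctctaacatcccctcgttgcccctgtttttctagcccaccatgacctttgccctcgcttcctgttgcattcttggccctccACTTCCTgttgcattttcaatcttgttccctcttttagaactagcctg
Ccl9: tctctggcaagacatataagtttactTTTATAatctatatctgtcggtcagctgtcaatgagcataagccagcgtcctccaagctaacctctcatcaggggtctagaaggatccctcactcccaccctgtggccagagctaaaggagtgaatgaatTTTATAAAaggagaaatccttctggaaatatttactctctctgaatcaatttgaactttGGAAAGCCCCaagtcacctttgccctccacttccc
The Cxcl1 promoter held 2 kappaB-like matches, which began 89 and 71 bases before the start. Ccl9 held 1 kappaB-like match at 35 bases and TATA matches at 224 bases and at 94 and 92 bases, the last of which overlap. The Ccl6 promoter held 1 PU.1-like match at 48 bases. Of 27025 RefSeq promoters of the same length, 1.40% held the kappaB-like motif, 7.80% the PU.1-like motif and 13% the TATA motif. Of the 10 members, 7 had a promoter entry. Cxcr4 held overlapping TATA matches, and Ccl3, Ccl17 and Ccr2 held none of the 3 motifs. Ccl4, Ccl5 and Cxcl16 had no entry. A match describes the letters of the window and is not a measured binding site.

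The 8 HiSeq libraries held 256985 to 4960334 unique molecular identifiers (UMIs, each standing for 1 captured RNA molecule). Barcodes with 450 to 4000 genes and under 20% mitochondrial UMIs left 1307 WB1P and 3491 WB1P-Myc cells, and the libraries shared 3 barcodes in all over 28 pairs. WB1P fraction 1 was the shallowest and gave 2 leukocyte-like cells. Cells were clustered without any chemokine or chemokine receptor gene, so the members took no part in defining the classes, and clusters were named from marker genes. Leukocyte-like cells numbered 1076, of which 865 were macrophage-like (256 WB1P and 609 WB1P-Myc) and 39 T/NK-like. The other 172 formed leukocyte subcluster 5, led by Mgl2, Il1r2 and genes of major histocompatibility complex class II, which stayed unnamed. Named cells outside the leukocytes were 1523 epithelial-like, 493 fibroblast-like, 110 endothelial-like and 633 Schwann-like, and 963 cells of cluster 6, led by Col2a1 and Acan, stayed unnamed. Levels are UMI counts summed within a class and divided by all UMIs of its cells, per 1e+06 (CPM), with 95% exact Poisson intervals, ratios carry 95% conditional binomial intervals, and all intervals and limits cover counting error only.

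To ask which cells carry the members, leukocyte-like cells were set against all other named cells. Of the 10 members, 9 were at least 2-fold higher in leukocyte-like cells, against a background of 14.8% of the 11750 genes with at least 50 counts. The median log2 ratio was 4.78 for the members and -0.41 for all these genes. Among the 7 libraries with at least 20 leukocyte-like cells, 7 members had every leukocyte-like value above every value of the other cells, against 9.99% of all genes.

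Ccl6, Ccr2 and Ccl9 were the furthest apart. Ccl6 stood at 1570 CPM [1515, 1627] in leukocyte-like cells and 9.86 CPM in the other named cells, a log2 ratio of 7.31 [7.04, 7.60]. Over the 7 libraries Ccl6 ranged from 1147 to 2893 CPM in leukocyte-like cells (median 1442) and from 6.32 to 17.4 CPM in the others. Ccl9 reached 409 CPM against 4.25 CPM, with library values of 289 to 491 CPM (median 430) and 2.01 to 6.98 CPM. Neither gene overlapped between the pools. Ccl4 stood at 316 CPM against 6.52 CPM (log2 ratio 5.60 [5.24, 5.97]) and Ccl3 at 105 CPM against 3.53 CPM (log2 ratio 4.90 [4.40, 5.43]). Library values of Ccl4 were 62.0 to 533 CPM (median 350) in leukocyte-like cells and at most 11.1 CPM outside them. For Ccl3 they were 53.7 to 175 CPM (median 98.4) and at most 20.5 CPM.

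Both receptors were mainly leukocytic. Ccr2 stood at 309 CPM in leukocyte-like cells against 2.71 CPM (log2 ratio 6.83), with 190 to 385 CPM over the libraries and at most 6.27 CPM in the other cells. Cxcr4 stood at 145 CPM against 5.70 CPM (log2 ratio 4.67), with 38.6 to 194 CPM and at most 22.1 CPM. Cxcl16 reached 552 CPM against 28.6 CPM (log2 ratio 4.27), with 406 to 696 CPM and 11.6 to 57.7 CPM. The libraries of these 3 genes did not overlap. Ccl17 and Ccl5 were higher in leukocyte-like cells in the pooled counts (137 against 5.61 CPM and 92.8 against 27.9 CPM), but their library ranges of 0 to 355 CPM and 20.6 to 177 CPM overlapped those of the other cells. Within WB1P the Ccl5 levels of 55.9 and 39.5 CPM were less than 2-fold apart, and in WB1P-Myc (112 and 24.1 CPM) 1 cell held 46 of the 143 leukocyte-like UMIs.

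**Figure D1:**
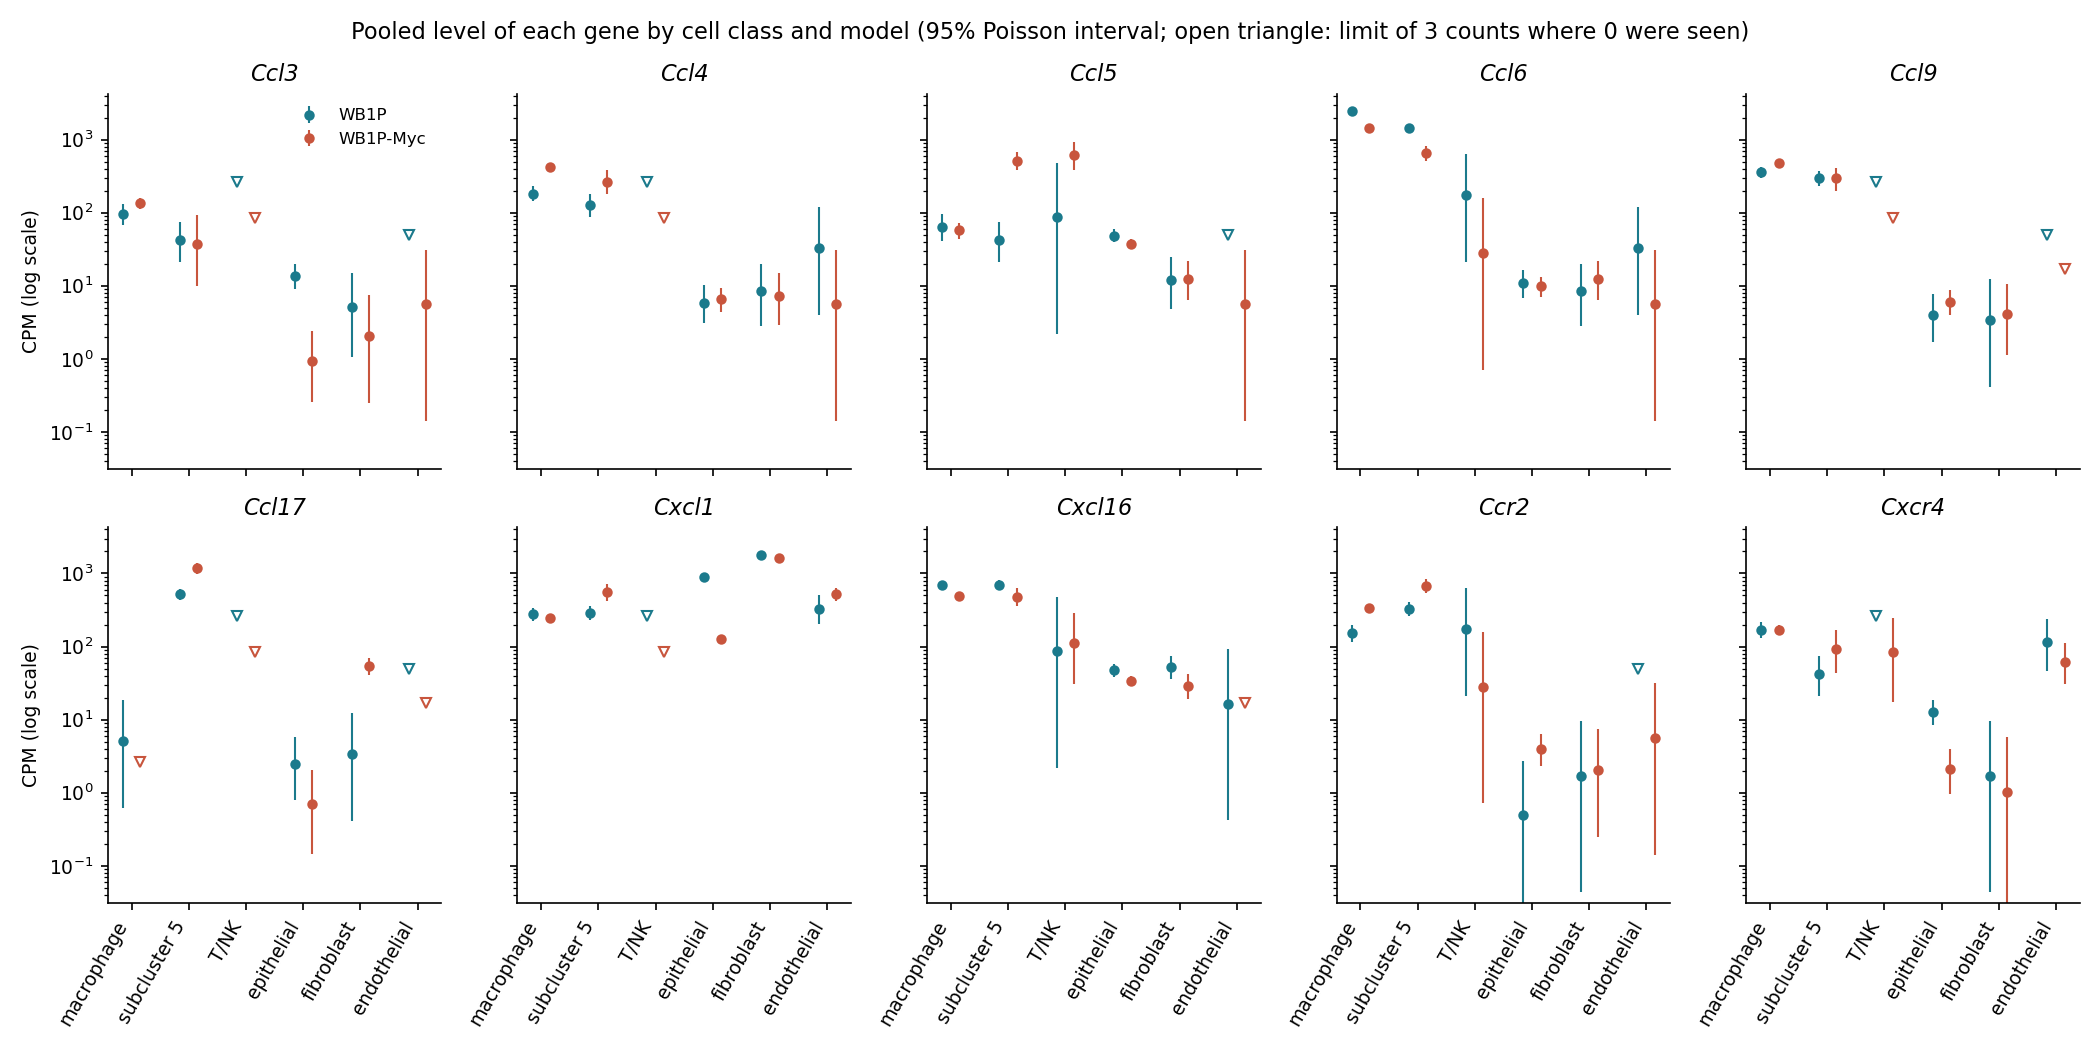
CPM on a log axis of each member in 6 cell classes, in WB1P and WB1P-Myc; bars are 95% Poisson intervals and open triangles mark the limit of 3 counts where none was seen. Ccl6, Ccl9, Ccl4 and Ccr2 sit highest in macrophage-like cells and subcluster 5, whereas Cxcl1 reaches 1789 and 1615 CPM in fibroblast-like cells.

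Leukocyte genes were also read at a low level outside the leukocytes, where free RNA and doublets were not told apart, and 10 leukocyte genes that are not members served as a yardstick. Their level in epithelial-like cells was between 0.510% and 1.40% of that in macrophage-like cells (median 1.07%), and in fibroblast-like cells between 0.345% and 1.65% (median 0.881%). Ccl6, Ccl9 and Ccr2 lay within both of these ranges, at 0.594%, 1.19% and 0.99% in epithelial-like cells and 0.645%, 0.861% and 0.674% in fibroblast-like cells. With all UMIs, 45.5% of macrophage-like cells held a Ccl6 UMI and 3.61% of epithelial-like cells did, at medians of 1443 and 3066 UMIs per cell. After thinning to 600 UMIs the shares were 33.1% and 0.525%. In endothelial-like cells the 3 genes also lay within the yardstick range of 0 to 1.82%. In Schwann-like cells Ccl6 and Ccl9 lay within its range of 0.258% to 0.815%, and Ccr2 was above it at 0.951%, on 8 UMIs.

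Cxcl1 had a different distribution. Of its 6016 UMIs in kept cells, 43.3% were in fibroblast-like cells, 39.8% in epithelial-like cells and 8.61% in leukocyte-like cells. Fibroblast-like cells stood at 1680 CPM [1616, 1746], which is 669% of the macrophage-like level of 251 CPM [226, 277], and 43.0% of them held a UMI after thinning against 8.55% of macrophage-like cells. Endothelial-like cells stood at 469 CPM [386, 564] and epithelial-like cells at 379 CPM [364, 394], and Schwann-like cells at 36.8 CPM. Within WB1P, epithelial-like cells (908 CPM) were above endothelial-like cells (330 CPM), and within WB1P-Myc they were below them (127 against 516 CPM). The difference between leukocyte-like and other named cells (267 against 472 CPM) was a log2 ratio of -0.82 [-0.96, -0.69]. Within WB1P the levels were 276 CPM [238, 319] and 1087 CPM [1048, 1127], whereas within WB1P-Myc they were 262 CPM [235, 292] and 275 CPM [264, 287] and their intervals overlapped. Its libraries overlapped, with 149 to 358 CPM in leukocyte-like cells and 221 to 1468 CPM in the others.

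In the pooled counts the other members were also above the yardstick in a class outside the leukocytes. Ccl3 stood at 4.07% of its macrophage-like level in epithelial-like cells (32 UMIs) and at 2.6% in fibroblast-like cells (5 UMIs), and Ccl4 at 1.75% (40 UMIs) and 2.14% (12 UMIs). No intervals were made for these shares, so a lead over the yardstick is uncertain for Ccl4 and for fibroblast-like Ccl3. In epithelial-like cluster 1, mostly WB1P, Ccl3 was at 10.9% and Ccl4 at 1.61%, inside the yardstick range of 0.465% to 2.85%. In epithelial-like cluster 5, mostly WB1P-Myc, Ccl3 was at 0.754%, inside the range of 0.531% to 1.53%, and Ccl4 at 1.81%. Of the 32 epithelial-like Ccl3 UMIs, 28 were from WB1P, in 17 of 672 cells. In epithelial-like cells Ccl3 stood at 13.7 CPM in WB1P against 95 CPM in macrophage-like cells, and at 0.932 CPM in WB1P-Myc against 134 CPM. The yardstick is scaled to macrophage-like cells. The WB1P barcodes with neutrophil markers described below held Ccl3 at 4702 CPM and Ccl4 at 2947 CPM. Free RNA from such barcodes is not covered by the yardstick and was not tested. Epithelial-like cells held 47.9% of the Ccl5 UMIs at 40.9 CPM, 69.2% of the macrophage-like level. These Ccl5 UMIs came from few cells, since 49 epithelial-like cells (3.22%) carried all 259 of them, and in WB1P 10 cells carried 99.0%. Cxcl16 reached 38.2 CPM [33.6, 43.4] in epithelial-like and 38.1 CPM [29.0, 49.1] in fibroblast-like cells, 7.0% and 6.98% of its macrophage-like level. Cxcr4 reached 75.3 CPM [44.6, 119] in endothelial-like cells, 44.6% of its macrophage-like level, on 18 UMIs. CXCL12, the ligand of CXCR4, is not a member, and its gene stood at 653 CPM in endothelial-like cells and 349 CPM in fibroblast-like cells against 1.31 CPM in macrophage-like cells.

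Within the leukocytes the members had separate patterns. Subclusters 1, 2, 3, 4 and 6 make up the macrophage-like class, and both models are pooled in the values that follow unless a model is named. Some orders were not the same within a model. Subcluster 3, led by Mmp12 and Arg1, had the highest Ccl6 level, 5232 CPM [4845, 5641], followed by subcluster 6 (led by Lpl and Cd36) at 3091 CPM [2896, 3297] and subcluster 4 (led by Cbr2 and Gas6) at 2209 CPM [1972, 2466]. Subclusters 2 and 5 came next, at 1244 CPM and 1221 CPM with overlapping intervals, and subcluster 1 (led by Syngr1) was lowest at 516 CPM [464, 572]. Subcluster 3 led in WB1P, at 5912 CPM, whereas in WB1P-Myc it stood at 2085 CPM, below subcluster 6 at 3166 CPM and subcluster 4 at 2468 CPM. The lowest was subcluster 1 in WB1P-Myc (299 CPM) and subcluster 2 in WB1P (956 CPM). The order of Ccl9, the neighbor of Ccl6, was not the same. Ccl9 was highest in subcluster 6 at 838 CPM [737, 948], with subcluster 2 (led by Ier3 and Cd44) at 639 CPM [542, 747] and subcluster 4 at 620 CPM [498, 763], whose intervals overlapped, and it was lowest in subcluster 1 at 190 CPM [159, 225]. In WB1P, subclusters 2 and 3 led at 454 and 451 CPM, and subcluster 6, with 7 cells, held 1 Ccl9 UMI. Neither ligand was a gene of the T/NK-like cells, where Ccl6 had 3 UMIs and Ccl9 none, a level of at most 63.9 CPM at the limit of 3 counts.

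Ccr2 was highest in subclusters 2 and 4, at 816 CPM [706, 938] and 676 CPM [548, 825], and subcluster 5 stood at 429 CPM [365, 502]. Subclusters 6 and 1 followed at 153 CPM and 130 CPM with overlapping intervals, and subcluster 3 held 4 UMIs (30.9 CPM [8.42, 79.1]). Within WB1P the order was not the same, with Ccr2 at 454 CPM in subcluster 2, 325 CPM in subcluster 5 and 166 CPM in subcluster 4. Cxcr4 was highest in subcluster 4 at 334 CPM [247, 443], above subclusters 1 and 2 at 179 CPM and 177 CPM. Subcluster 4 had the highest level in both models, at 355 CPM in WB1P on 15 UMIs and 326 CPM in WB1P-Myc on 33 UMIs. Next were subcluster 1 in WB1P at 202 CPM (34 UMIs) and subcluster 2 in WB1P-Myc at 188 CPM (34 UMIs). These few counts leave the lead within a model uncertain.

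Ccl4 stood at 544 CPM [455, 645] in subcluster 2 and 381 CPM [337, 430] in subcluster 1, and at 193 CPM and 167 CPM in subclusters 3 and 5. In WB1P, subcluster 3 stood at 197 CPM and subcluster 1 at 185 CPM. The Ccl3 intervals of subclusters 1, 2, 3 and 6 overlapped, with levels of 93.1 to 185 CPM, and subcluster 5 stood at 40.5 CPM [22.7, 66.8]. Cxcl16 stood at 699 CPM [638, 763] in subcluster 1, 632 CPM [554, 718] in subcluster 5 and 246 CPM [193, 309] in subcluster 6. Subclusters 2 and 5 were close within each model, at 762 and 697 CPM in WB1P (47 and 182 UMIs) and 497 and 477 CPM in WB1P-Myc (90 and 52 UMIs). These counts do not settle their order. Cxcl1 was highest in subcluster 3 at 742 CPM [601, 906] and lowest among the macrophage-like subclusters in subcluster 1 at 63.8 CPM [46.5, 85.3]. Subcluster 3 had the highest pooled Cxcl1 level in both models, but its lead within a model is uncertain. In WB1P-Myc it stood at 825 CPM on 19 UMIs, against 652 CPM on 118 UMIs in subcluster 2. In WB1P its fractions, at 220 to 1211 CPM, overlapped those of subcluster 5, at 57.1 to 636 CPM. In WB1P subcluster 2 was lowest, at 32.4 CPM on 2 UMIs.

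Ccl17 was a gene of subcluster 5. This subcluster held 264 of the 332 Ccl17 UMIs (79.5%) and stood at 713 CPM [630, 805], and the 865 macrophage-like cells held 2. Only 22 of its 172 cells carried the 264 UMIs, and a single cell carried 74 of them. In the pooled counts Ccl5 was highest in T/NK-like cells at 490 CPM [310, 735], on 23 UMIs in 8 of 39 cells, and stood at 181 CPM in subcluster 5. Of the 23 T/NK-like UMIs, 22 were from WB1P-Myc (620 CPM), and the 10 WB1P cells held 1 (86.9 CPM), so the order rests on WB1P-Myc. In subcluster 1, 46 of 67 Ccl5 UMIs came from 1 cell.

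**Figure D2:**
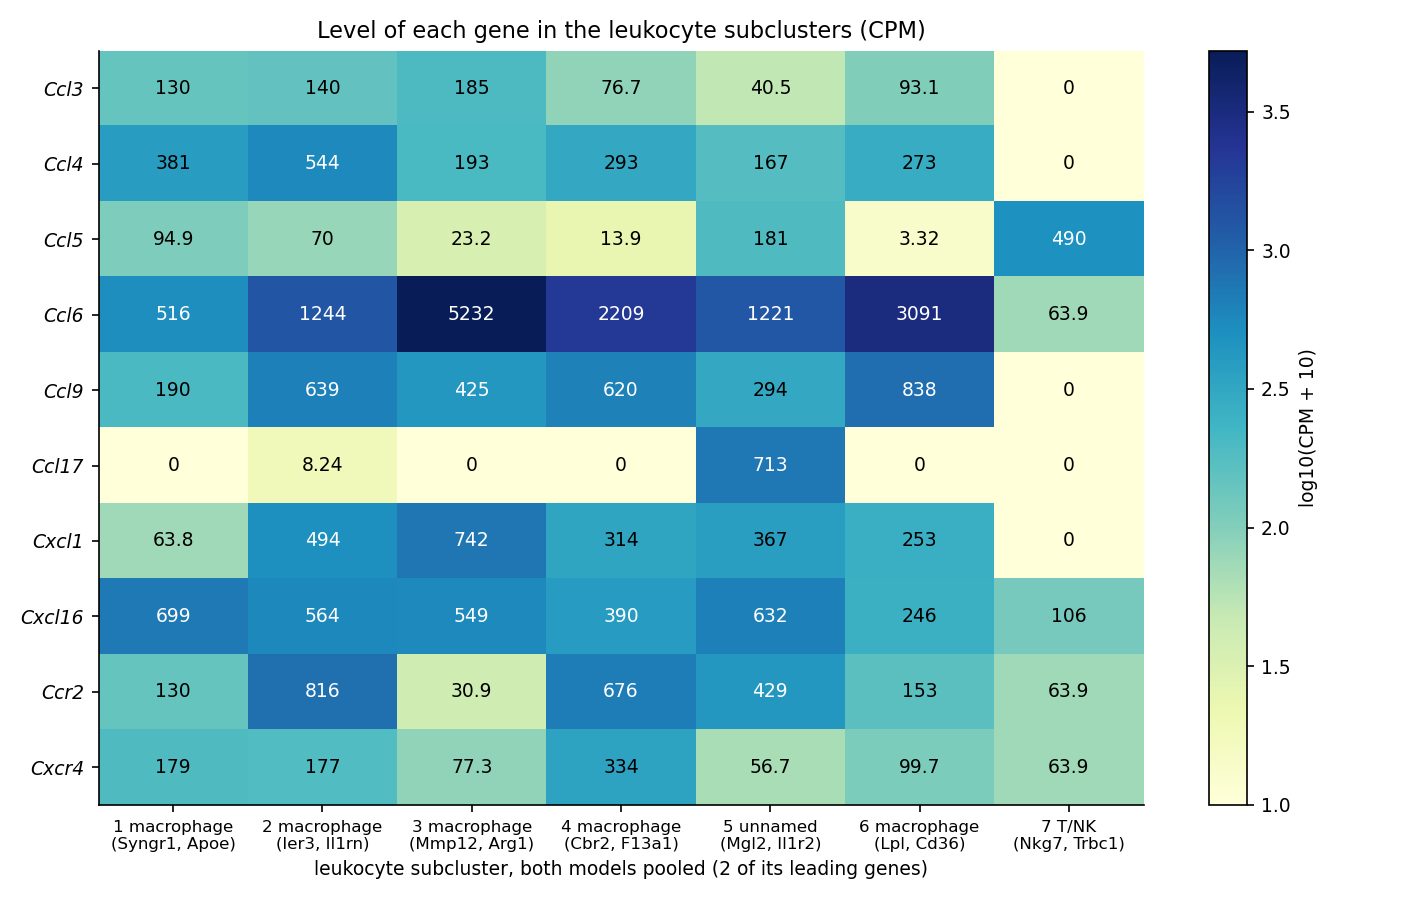
CPM of each member (rows) in the 7 leukocyte subclusters (columns, both models pooled), printed in the cells and colored by log10(CPM + 10). Ccl17 is read almost entirely in subcluster 5, Ccl6 peaks at 5232 CPM in subcluster 3, and Ccr2 peaks at 816 CPM in subcluster 2.

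Detection of the members was also compared cell by cell, in macrophage-like cells thinned to 600 UMIs. Among the 119 cells with a Ccl4 UMI, 26.1% also held Ccl3, against 4.69% of the 746 cells without Ccl4. Likewise 47.0% of the 66 cells with Ccl3 held Ccl4, against 11% of those without. Ccl6 and Ccl9 were also found together, with Ccl9 in 36.0% of 286 cells with Ccl6 and in 11.4% of 579 cells without it. Cxcl16 went the other way, with 20.3% of the cells with Ccl6 and 31.3% of those without. Ccr2 was held by 30.2% of the cells with Ccl9 and 12.6% of those without, and by 15.1% and 16.2% of the cells with and without Ccl4. These are shares of cells of 2 samples and are given as descriptions.

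Over 12 pools of class and model, the genes with the pattern most like each member were sought among 10259 genes. For Ccl6 they were Fcgr3, Lat2 and C1qb (Pearson r of 0.993, 0.991 and 0.991) and for Ccl9 Lyz2, Cd300ld and Fcgr1 (r of 0.997, 0.996 and 0.996). Ccl3 was closest to Trem2, Adam8 and Acp5 (0.967, 0.967 and 0.966), Ccl4 to Daglb and Cd300a (0.980 and 0.979) and Ccr2 to Ppfia4, Pyhin1 and Irf5 (0.993, 0.992 and 0.991). Cxcl16 was closest to Ctsc, Prkcd and Ctsz (0.988, 0.979 and 0.977) and Cxcr4 to Cyth1, Rasa4 and Tnfrsf11a (0.969, 0.966 and 0.966). The correlations were lower for Cxcl1, with Smad7, Cnn2 and Tmsb10 at 0.943, 0.922 and 0.908, for Ccl5, with Mfsd7b, Zbtb18 and Guca1a at 0.951, 0.916 and 0.903, and for Ccl17, with Retnla, Rrad and H2-Eb1 at 0.864, 0.842 and 0.830. The pools share libraries and differ in depth. T/NK-like cells, 10 of WB1P and 29 of WB1P-Myc, were under the limit of 30 cells and formed no pool. Most Ccl5 UMIs of the WB1P-Myc macrophage-like pool came from a single cell.

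To ask whether the models differ, the macrophage-like cells of WB1P-Myc were set against those of WB1P. Ccl4 and Ccr2 were more than 2-fold higher in WB1P-Myc, Ccl6 and Cxcl16 were lower by less than 2-fold, and the median over the members was near 0. Of the 9 members with at least 50 counts, 2 were past 2-fold, against a background of 9.31% of 4392 genes, and both were higher in WB1P-Myc (background 6.28%), while none was past 2-fold lower (background 3.03%). The median log2 ratio was -0.01 for the members and 0.14 for all these genes. Over the 3 WB1P and 4 WB1P-Myc fractions with at least 20 such cells, the models did not overlap for 4 members, against 17.6% of all genes. The subclusters are filled differently by the models, with 88, 61, 69, 31 and 7 WB1P cells and 253, 156, 14, 56 and 130 WB1P-Myc cells in subclusters 1, 2, 3, 4 and 6.

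Ccl4 stood at 226, 245 and 91.3 CPM in the WB1P fractions and at 370, 395, 406 and 535 CPM in the WB1P-Myc fractions. All WB1P-Myc fractions were above all WB1P fractions, and the pooled levels of 423 and 182 CPM gave a log2 ratio of 1.21 [0.85, 1.59]. Ccr2 stood at 172, 133 and 155 CPM in WB1P and at 299, 282, 377 and 388 CPM in WB1P-Myc, again without overlap, with a log2 ratio of 1.14 [0.74, 1.56]. When 1 fraction was left out and cells were clustered anew, the log2 ratios without WB1P fraction 4 were 0.89 for Ccl4 and 0.64 for Ccr2, without WB1P fraction 3 Ccr2 was at 0.75, and without WB1P-Myc fraction 4 Ccl4 was at 0.78, all below 2-fold. Ccl4 was at 2.08 without WB1P fraction 3 and Ccr2 at 2.01 without WB1P-Myc fraction 2. In the MiSeq run, with 38 and 68 macrophage-like cells, Ccr2 turned to -1.77 [-3.10, -0.56].

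Ccl6 was lower in WB1P-Myc. Its WB1P fractions stood at 3837, 2136 and 1805 CPM and its WB1P-Myc fractions at 1186, 1454, 1395 and 1718 CPM, which did not overlap, and the log2 ratio was -0.80 [-0.92, -0.69]. It was -0.20 without WB1P fraction 4 and 0.36 in the MiSeq run, and it passed 2-fold without WB1P fraction 1 (-1.65), WB1P-Myc fraction 2 (-1.17) or WB1P-Myc fraction 4 (-1.24). Cxcl16 stood at 632, 675 and 738 CPM in WB1P and at 551, 578, 446 and 396 CPM in WB1P-Myc, without overlap and with a log2 ratio of -0.47 [-0.68, -0.25]. The remaining members overlapped between the models. Ccl9 had a log2 ratio of 0.42 [0.15, 0.70], Ccl3 of 0.50 [-0.03, 1.06], Cxcl1 of -0.18 [-0.51, 0.16], Cxcr4 of -0.01 [-0.42, 0.42] and Ccl5 of -0.16 [-0.85, 0.57]. Without the single WB1P-Myc cell that held 46 of the 65 Ccl5 UMIs, the Ccl5 ratio was -1.93 [-2.87, -1.01], and without WB1P-Myc fraction 1 it was -1.72, where the other WB1P-Myc fractions (10.9 to 29.9 CPM) lay below the WB1P fractions (54.2 to 77.3 CPM). The Cxcr4 fractions spread from 54.2 to 267 CPM in WB1P and from 114 to 209 CPM in WB1P-Myc. The Ccl3 ratio was 3.70 [1.06, 9.07] in the MiSeq run and 0.01 without WB1P-Myc fraction 4. Ccl17 had no UMI in WB1P-Myc and 2 in WB1P macrophage-like cells, too few for a ratio.

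**Figure D3:**
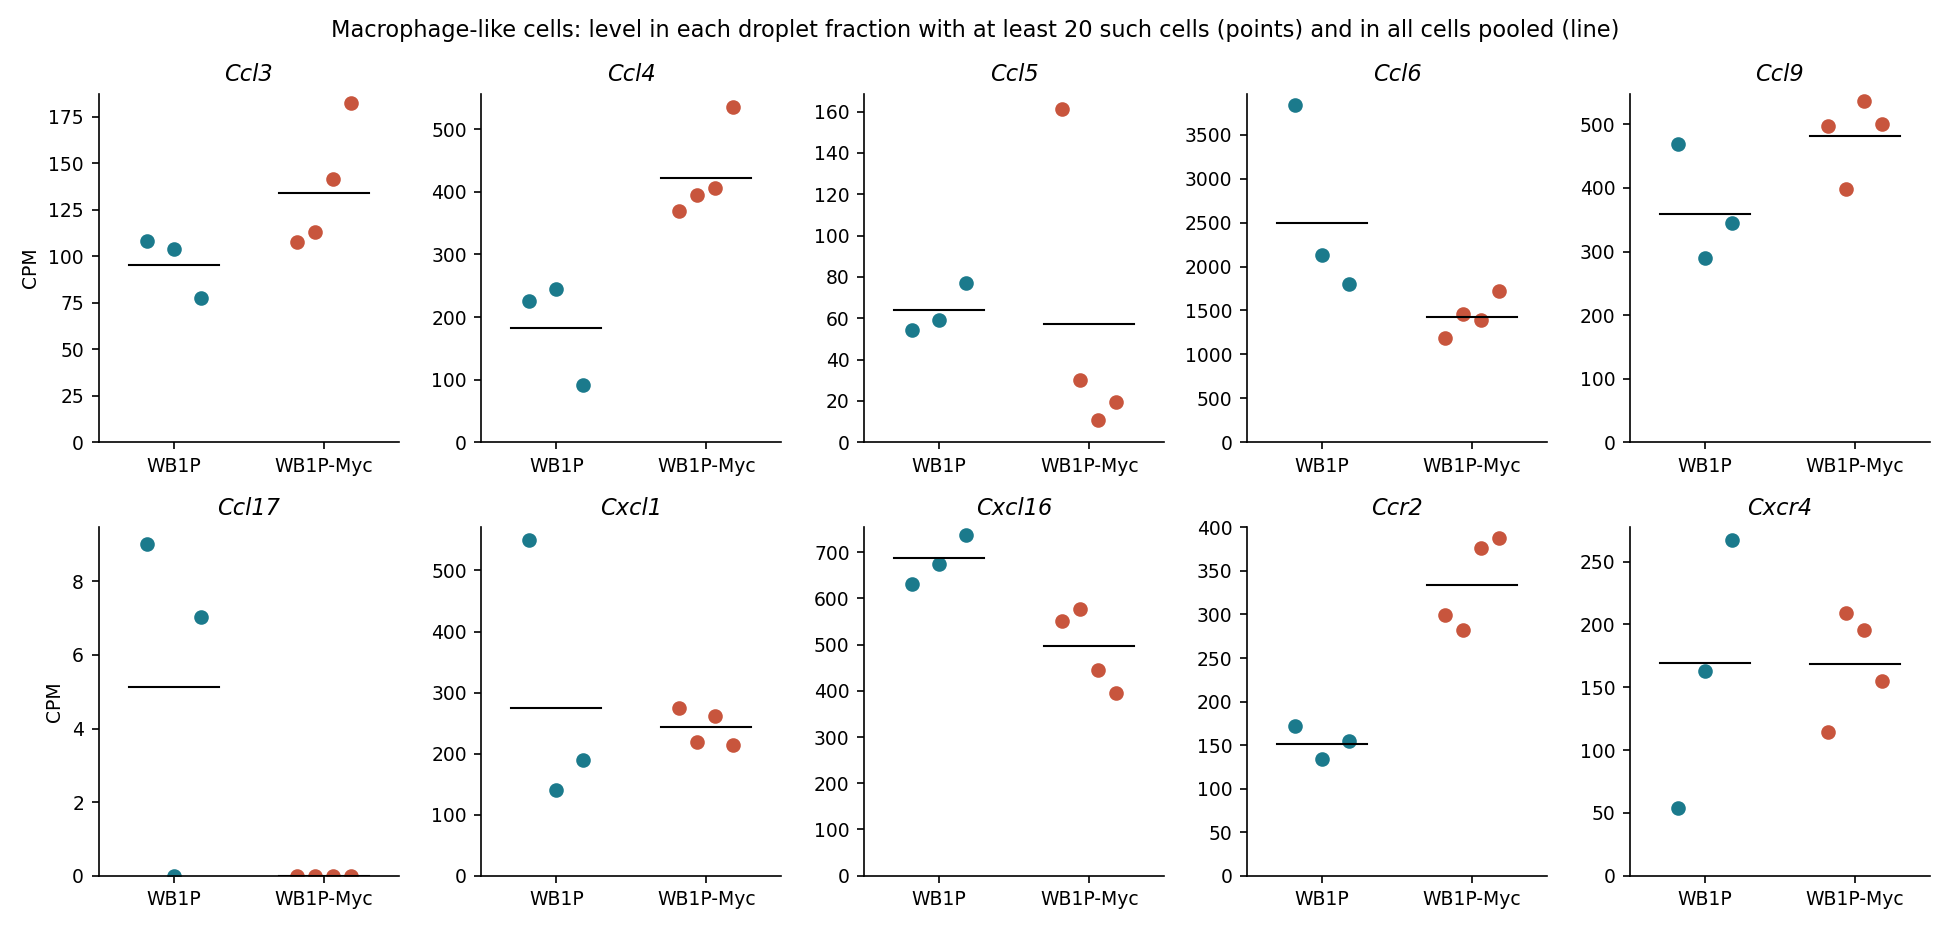
CPM (linear axis from 0) of each member in macrophage-like cells; points are droplet fractions with at least 20 such cells (3 of WB1P, 4 of WB1P-Myc) and lines the pooled level. Ccl4 and Ccr2 are higher and Ccl6 and Cxcl16 lower in all WB1P-Myc fractions, and Ccl5 of WB1P-Myc has a single fraction at 161 CPM.

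The markers of other myeloid cells also differed between the models in this class. The summed level of 10 monocyte markers, 9 of them detected in each model, was 578 to 1089 CPM over the WB1P fractions and 1175 to 1609 CPM over those of WB1P-Myc. Ly6c2, which marks inflammatory monocytes, stood at 28.2 CPM in WB1P and 77.7 CPM in WB1P-Myc. The 10 dendritic markers, 6 of them detected, summed to 519 to 590 CPM and 252 to 341 CPM, and Flt3 and Zbtb46 were at 0 in both models. The 12 immediate early and stress genes, a sign of handling, summed to 4262 to 5079 CPM in WB1P and 4021 to 4461 CPM in WB1P-Myc. Their part in the model differences of Ccl4, Ccr2, Ccl6 and Cxcl16 was not tested.

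Ratios within the subclusters separated the members further. For Ccl4, WB1P-Myc was higher in subclusters 1 (443 against 185 CPM, log2 ratio 1.26 [0.72, 1.85]), 2 (646 against 243 CPM, 1.41 [0.63, 2.29]) and 5 (266 against 126 CPM, 1.07 [0.30, 1.84]). Subcluster 4 gave 2.44 [0.78, 4.78] on 3 WB1P UMIs, subcluster 3 gave -0.18 [-2.19, 1.38], and subcluster 6 gave 1.65 [-0.87, 6.97] on 1 WB1P UMI. For Ccr2, WB1P-Myc was higher in subclusters 2 (939 against 454 CPM, 1.05 [0.47, 1.68]), 4 (888 against 166 CPM, 2.42 [1.32, 3.78]) and 5 (679 against 325 CPM, 1.06 [0.59, 1.53]), subcluster 1 gave 0.36 [-0.40, 1.19], and subcluster 6 gave -0.24 [-2.17, 2.86] on 2 WB1P UMIs.

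Ccl6 did not keep a direction. It was lower in WB1P-Myc in subclusters 1 (299 against 1209 CPM, log2 ratio -2.01 [-2.32, -1.71]), 3 (2085 against 5912 CPM, -1.50 [-1.96, -1.08]) and 5 (651 against 1459 CPM, -1.16 [-1.55, -0.80]). It was higher in subclusters 2 (1342 against 956 CPM, 0.49 [0.07, 0.93]), 4 (2468 against 1587 CPM, 0.64 [0.24, 1.05]) and 6 (3166 against 1162 CPM, 1.45 [0.66, 2.36], on 917 and 13 UMIs). The Ccl6 fractions with at least 20 cells were 836 to 1468 CPM in WB1P and 159 to 482 CPM in WB1P-Myc in subcluster 1. In subcluster 2 they were close, at 1139 to 1168 CPM and 1216 to 1629 CPM. No WB1P fraction had 20 cells in subclusters 4 and 6, and no WB1P-Myc fraction in subclusters 3 and 5. In the pooled counts Ccl9 was likewise lower in subcluster 1 (-0.88 [-1.41, -0.35]) and higher in subclusters 2 and 4 (0.63 [0.03, 1.27] and 1.16 [0.32, 2.10]), and subcluster 6 gave 3.28 [0.79, 8.59] on 251 and 1 UMIs. The Ccl9 fractions overlapped in subcluster 1, at 214 to 361 CPM in WB1P and 63.7 to 347 CPM in WB1P-Myc. They also overlapped in subcluster 2, at 260 to 664 CPM and 588 to 918 CPM. The Cxcl16 ratio was below 0 in each of the 5 macrophage-like subclusters and in subcluster 5, with intervals that excluded 0 in subclusters 2, 3 and 5. In subcluster 2 the Cxcl16 fractions overlapped, at 617 to 865 CPM in WB1P and 234 to 683 CPM in WB1P-Myc. Cxcl1, whose class ratio was near 0, was lower in subcluster 1 (46.5 against 119 CPM, -1.36 [-2.26, -0.43]) and higher in subcluster 2 (652 against 32.4 CPM, 4.33 [2.45, 7.39], on 118 and 2 UMIs). Its fractions overlapped in subcluster 1, at 59.7 to 167 CPM in WB1P and 6.37 to 77.0 CPM in WB1P-Myc. Cxcl1 was also higher in WB1P-Myc in subclusters 4 (1.44 [0.19, 2.97], on 39 and 6 UMIs) and 5 (0.92 [0.41, 1.43], on 60 and 76 UMIs).

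**Figure D4:**
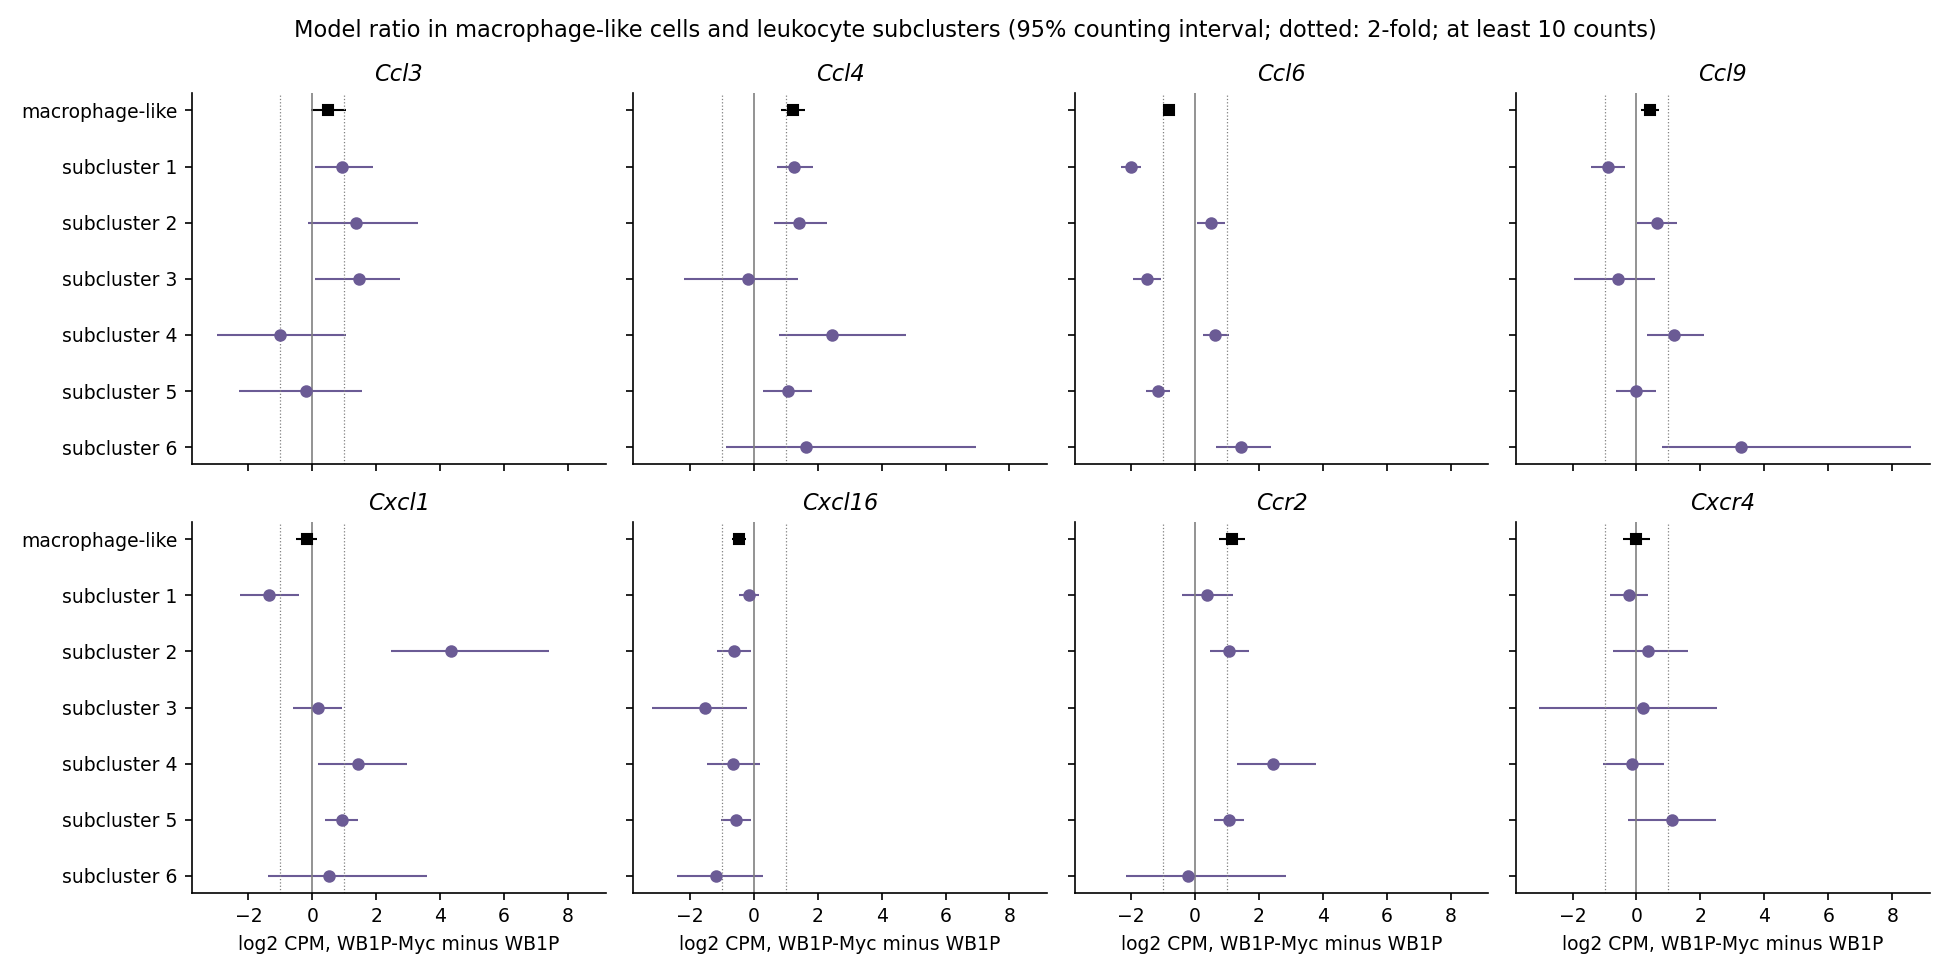
log2 ratio of CPM, WB1P-Myc minus WB1P, of 8 members in macrophage-like cells (squares) and in leukocyte subclusters 1 to 6 (circles) with 95% counting intervals; dotted lines mark 2-fold and ratios on fewer than 10 counts or with a model at 0 are left out. Ccl4 lies right of 0 in subclusters 1, 2, 4, 5 and 6, whereas Ccl6 lies left of 0 in 1, 3 and 5 and right of 0 in 2, 4 and 6.

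In subcluster 5 the model values of Ccl17 and Ccl5 rested on few cells. Ccl17 stood at 517 CPM [433, 612] in WB1P and 1183 CPM [988, 1405] in WB1P-Myc, but the share of cells with a UMI ran the other way, at 15.3% (17 of 111 cells) in WB1P and 8.20% (5 of 61 cells) in WB1P-Myc, with overlapping intervals. A single WB1P-Myc cell held 74 of the 129 UMIs of that model. The Ccl17 levels of the fractions were 1640, 615, 2556 and 0 CPM in WB1P-Myc and 343, 263 and 923 CPM in WB1P, and they overlapped. For Ccl5 the levels were 42.1 CPM in WB1P and 513 CPM in WB1P-Myc, and 48 of the 56 WB1P-Myc UMIs came from fraction 3. A further 54 Ccl17 UMIs were in fibroblast-like cells, 52 of them in 16 WB1P-Myc cells (53.9 CPM [40.2, 70.6]) and 2 in WB1P. These were spread over the 4 WB1P-Myc fractions at 85.6, 11.4, 15.8 and 114 CPM, and 1 cell held 20 of them.

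Cxcl1 in fibroblast-like cells stood at 2348, 1267 and 1830 CPM in WB1P fractions 2, 3 and 4 and at 1338, 2118, 1311 and 1641 CPM in WB1P-Myc. These values overlapped, and the pooled log2 ratio was -0.15 [-0.26, -0.03]. In this class 4.67% of genes were past 2-fold. In epithelial-like cells Cxcl1 stood at 862, 1262, 837 and 588 CPM in WB1P and at 145, 146, 101 and 111 CPM in WB1P-Myc. The fractions did not overlap, the log2 ratio was -2.84 [-2.98, -2.70], and 30.6% of the genes with at least 50 counts in this class were past 2-fold. The epithelial-like cells of the models were different clusters, cluster 1 with 671 of its 683 cells from WB1P and cluster 5 with 839 of its 840 cells from WB1P-Myc. When cells were clustered anew without WB1P-Myc fraction 1, only 19 WB1P-Myc cells were epithelial-like and the ratio was -0.34 [-0.81, 0.09], and without WB1P-Myc fraction 3 only 6 were and the ratio was -3.57 [-8.87, -1.09]. Among the other members, Ccl3 had 28 UMIs in WB1P and 4 in WB1P-Myc epithelial-like cells and Cxcr4 had 26 and 9, whereas Ccr2 had 1 in WB1P and 17 in WB1P-Myc.

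The receptors of the members were read in the same cells. Ccr1, the receptor of CCL6 and CCL9 and shared by CCL3 and CCL5, stood at 288 CPM [262, 317] in macrophage-like cells. Cxcr2, through which CXCL1 acts, had 2 UMIs in macrophage-like cells, and Cxcr6, the receptor of CXCL16, stood at 192 CPM [87.6, 364] in T/NK-like cells on 9 UMIs and at 0.657 CPM in macrophage-like cells. CCL2 and CCL7, which are among the ligands of CCR2 but not the only ones, are not members. Their genes stood at 1229 and 1008 CPM in fibroblast-like cells and 382 and 501 CPM in macrophage-like cells. In a list of 21 further receptors, 7 had at least 50 counts, and 5 were at least 2-fold higher and 2 at least 2-fold lower in leukocyte-like cells, where 14.8% of all genes with at least 50 counts were higher and 30.9% lower. In a list of 27 further chemokines, 14 had at least 50 counts, with 4 higher and 8 lower. Between the models, in macrophage-like cells, 0 of 4 such receptors and 5 of 5 such chemokines were past 2-fold, against 9.31% of all genes. Pf4 and Cxcl3 were higher in WB1P-Myc and Ccl12, Ccl24 and Cxcl14 lower, and Ccl12 went from 737 CPM in WB1P to 237 CPM in WB1P-Myc (log2 ratio -1.63 [-1.88, -1.39]). The intervals of the others included ratios under 2-fold. They were 1.10 [0.92, 1.29] for Pf4, 1.25 [0.40, 2.21] for Cxcl3 (13 WB1P UMIs), -1.44 [-2.22, -0.66] for Ccl24 and -1.22 [-1.75, -0.68] for Cxcl14.

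Most Ccl3 of the WB1P tables was not in the cells analyzed above. Barcodes under 450 genes held 570 of the 688 WB1P Ccl3 UMIs (82.8%) at 886 CPM [814, 962], and barcodes of 450 to 4000 genes held 79 UMIs (11.5%) at 23.6 CPM. For Ccl4 they held 302 UMIs (69.1%) at 469 CPM, for Ccl17 84 UMIs (36.5%) and for Ccl6 340 UMIs (18.9%). There were 2272 such barcodes in WB1P, with a median of 256 UMIs, and 231 in WB1P-Myc.

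Of these WB1P barcodes, 202 (8.89%) held at least 3 UMIs of the neutrophil markers S100a8, S100a9, Retnlg, Csf3r, Ly6g and Mmp9, of which 5 were detected. This limit was chosen after the data were seen. Ccl3 stood at 4702 CPM [4178, 5274] in them, with a UMI in 35.6% of barcodes, and Ccl4 at 2947 CPM [2535, 3406], with a UMI in 20.8%. WB1P macrophage-like cells stood at 95 and 182 CPM. Fractions 2, 3 and 4 gave Ccl3 levels of 8602, 3509 and 3276 CPM and Ccl4 levels of 5187, 2807 and 1595 CPM. Of the 72 such barcodes with Ccl3, 26 also held Ccl4, and of the 130 without Ccl3, 16 did. Ccl6 stood at 1401 CPM [1122, 1728], Cxcr4 at 242 CPM on 15 UMIs, Cxcl16 held 2 UMIs and Ccr2 1, and Ccl9 and Ccl5 had none, a level of at most 48.3 CPM at the limit of 3 counts. In the same barcodes Il1b stood at 14832 CPM, Cxcr2 at 1095 CPM, Ccr1 at 1546 CPM and the macrophage gene C1qa at 32.2 CPM. The 1886 WB1P barcodes under 450 genes with no neutrophil-marker UMI had Ccl3 at 286 CPM and Ccl4 at 135 CPM. In the MiSeq run, 134 WB1P barcodes met the same limit, with Ccl3 at 3648 CPM and Ccl4 at 2606 CPM. In the HiSeq tables of WB1P-Myc, 10 of the 231 barcodes under 450 genes met it, with 4 and 6 UMIs of the genes. These 231 barcodes had a median of 609 UMIs against 256 in WB1P, so the models were not compared at like depth. In the MiSeq run, 21 of 2661 WB1P-Myc barcodes under 450 genes met the limit, against 134 of 2161 in WB1P. The median UMIs of those barcodes were 130 and 116. The limit is not specific to neutrophils, since S100a8 was also a leading marker of epithelial-like cluster 1, which is mostly WB1P. Of the HiSeq barcodes over 4000 genes, 18 of 40 in WB1P and 4 of 134 in WB1P-Myc met the limit. A part of epithelial RNA in the model difference was not tested.

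**Figure D5:**
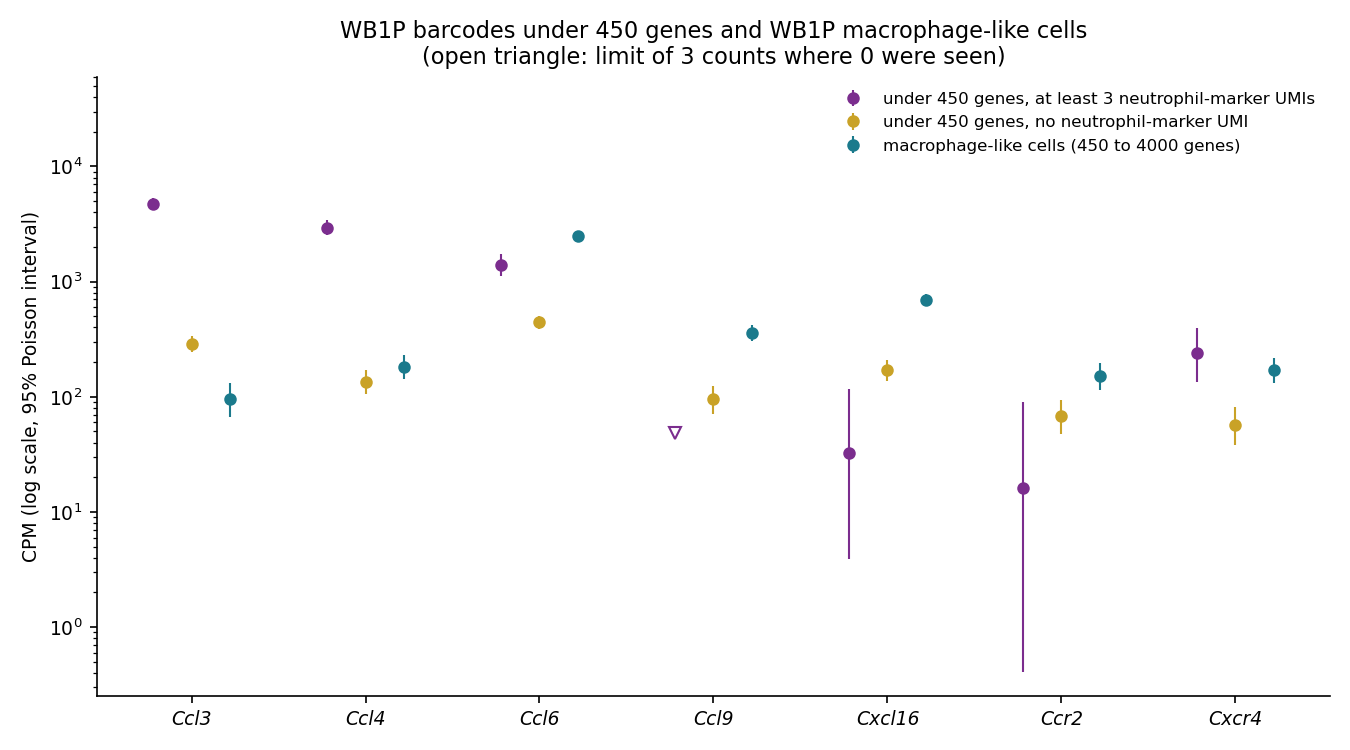
CPM on a log axis of 7 members in WB1P barcodes under 450 genes with at least 3 or with no neutrophil-marker UMI, and in WB1P macrophage-like cells; bars are 95% Poisson intervals and the open triangle is the limit of 3 counts. Ccl3 and Ccl4 are highest in the barcodes with neutrophil markers, where Ccl9 has none.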

How the data were processed

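Drop-seq was run on 4 droplet fractions per model, with a HiSeq and a MiSeq table for each, and the 16 deposited tables hold raw counts of UMIs per gene symbol and barcode, 1000 barcodes each. The authors made these counts with dropseq-tools, as their methods state, and mm10 and Scanpy stand in the submitters' processing notes. The sources used here do not name the aligner. No column of unknown sample was present. The HiSeq tables gave the main values. The MiSeq tables share 59 barcodes with them over the 8 fraction pairs and served as an alternative. By the methods, cDNA amplification was repeated for each fraction and libraries were run on both platforms, and which library gave which table is not given. A merged table was not used.

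Barcodes with at least 200 genes on loading, then 450 to 4000 genes and under 20% mitochondrial UMIs, were kept, with genes seen in at least 3 cells. Counts were scaled to 10000 per cell, log-transformed and clustered in scanpy 1.11.5 with 30 components, 20 neighbors and Leiden resolution 0.3, without 53 chemokine and chemokine receptor genes. Leukocyte-like cells were clustered again at resolution 0.5 with 20 components. A cluster was named from 14 marker lists by the markers among its 10 top genes and by leading markers, those in at least 10% of its cells at 2 times or more the mean of the other cells. At least 3 leading markers were required, or 5 where no top gene was a marker, a rule set after clusters were seen. No doublet caller was run, and doublets were treated only by leaving out barcodes over 4000 genes.

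Levels are CPM over pooled cells. Genes with at least 50 counts entered the counts of genes past 2-fold. Each gene named as most like a member came from log2(CPM + 10) over pools of at least 30 cells, among genes with at least 100 counts. Results of some genes are not reported here, among them 1 gene that this rule names for Ccl4. No test between models was made, because each model is 1 sample. TMM and median-of-ratios scaling came from edgeR 4.0.16 and DESeq2 1.42.0. Intervals were checked on simulated data. Members, lists and comparisons were chosen with earlier results of these data known.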

Additional observations from a re-analysis of the deposited data

Results flagged for a closer look

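Within groups of 4 fractions, 3 of 70 had a fraction far from the rest by Dixon's ratio, where chance gives about 1 in 20. Ccl3 in leukocyte subcluster 6 stood at 257 CPM in WB1P-Myc fraction 4 and at 30.8 to 57.1 CPM in the other fractions. Ccl5 stood at 308 CPM in subcluster 1 and at 161 CPM in all macrophage-like cells of WB1P-Myc fraction 1, against 6.37 to 24.7 CPM and 10.9 to 29.9 CPM in the other fractions, and 1 cell held 46 of these Ccl5 UMIs.

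Signal also lay in barcodes that the gene limits leave out. In WB1P barcodes under 450 genes Ccl3 stood at 886 CPM and Ccl4 at 469 CPM. In WB1P-Myc barcodes over 4000 genes Ccl5 stood at 73.1 CPM [65.4, 81.5], and 253 of its 327 UMIs came from 1 of 134 barcodes.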

How the results depend on the processing

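The count of members at least 2-fold higher in leukocyte-like cells was 9 under the alternatives run, the MiSeq tables excepted, where it was 6. The share of all genes was 14.8% in the main setting, and shares under the alternatives are not given here. The count of members past 2-fold between the models in macrophage-like cells was less stable. In brackets is the share of all genes past 2-fold. The count was 2 in the main setting (9.31%) and 0 with at least 200 genes per barcode (7.78%). It was also 0 in the MiSeq tables (11.2% of only 483 genes) and after thinning to 600 UMIs (7.19% of 1821 genes). Only members that met the minimum on counts could enter, and their number under the alternatives is not given here. In the MiSeq tables the log2 ratios of Ccr2 (-1.77) and Ccl3 (3.70) were past 2-fold but were not counted. The 0 there therefore does not show that the members stayed under 2-fold. Whether the minimum also set the 0 after thinning was not tested. The count was 1 with Leiden resolution 0.6 (8.54%), with leukocyte subclusters at resolution 0.3 (8.65%) and with the mean of per-cell CPM. For per-cell CPM the share, 9.31%, equals that of the main setting and may not have been made from per-cell means. The count was 3, as Ccl6 was then past 2-fold lower, with no upper gene limit (8.29%), under 10% mitochondrial UMIs (7.14%), with clustering on all genes (9.08%), with subclusters at resolution 1 (8.05%) and without subcluster 6 (8.36%). In all leukocyte-like cells it was also 3, with Ccl4, Ccl5 and Ccl17, and with the per-cell marker rule it was 2, with Ccl4 and Ccl17, so that Ccr2 was not called in either. With 1 fraction left out it was 0 to 3 (7.28% to 11.2%). The class itself changed with the clusters, from 256 WB1P and 609 WB1P-Myc cells to 107 and 421 without WB1P fraction 4. With a 1.5-fold limit 3 members passed (background 26.8%), and with no minimum on counts the background was 36.4%. Ccr2 turned to -1.77 on the log2 scale in the MiSeq tables. Over 25 settings the log2 ratio of Ccl4 was between 0.78 and 2.08, that of Ccl3 between 0.01 and 3.70 and that of Cxcl16 between -0.86 and -0.07, with no change of sign. The sign changed for Ccl6 (between -2.01 and 0.36), Cxcr4 (-0.54 and 0.47), Ccl9 (-0.36 and 0.72) and Cxcl1 (-0.96 and 0.99), as for Ccr2. Ccl5 was between -1.93 and 1.00 over 24 settings. The Cxcl1 ratio in fibroblast-like cells was between -0.83 and 0.21 over 21 settings. The cause was not tested. Leaving out subcluster 6, chosen after the data were seen, put Ccl6 at -1.60. No paired analysis was possible because fraction numbers do not pair the models and no result came from a test. TMM and median-of-ratios scaling moved the macrophage-like ratios by 0.07 and 0.04 and kept both calls. Depth limits T/NK-like cells most, with 46976 UMIs in all.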

Other observations

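In macrophage-like cells the inflammatory cytokine list summed to 3387 CPM in WB1P (3025 to 4153 CPM over fractions) and 2184 CPM in WB1P-Myc (1809 to 2543 CPM). Of its 5 genes with at least 50 counts, 1 was past 2-fold (background 9.31%), Il1b, the gene of interleukin 1 beta, at 1931 CPM in WB1P and 757 CPM in WB1P-Myc. The rest of these genes did not share a direction, so the list sum does not describe cytokines in general. Osm (169 and 116 CPM) and Ptgs2 (216 and 177 CPM) were lower in WB1P-Myc. Nfkbia (811 and 909 CPM) and Nfkbiz (105 and 132 CPM) were higher there. Of the 12 immediate early and stress genes, 1 was past 2-fold higher (background 6.28%) and 2 past 2-fold lower (background 3.03%) in WB1P-Myc. Ccr7, the receptor of lymph node homing, was read in T/NK-like cells at 341 CPM and in subcluster 5 at 127 CPM, and had 0 UMIs in macrophage-like cells.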
